A study of Mus musculus with 16 samples.

Results

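The immunity-related p47 GTPases are a family of interferon-induced GTPases of the mouse, and 8 of them were followed here in activated macrophages: Irgm1, Irgm2, Igtp, Iigp1, Tgtp1, Tgtp2, Ifi47 and Gm4951. They were taken by gene symbol and make up 8 of the 47069 gene rows of the table. All 8 passed the filter on low counts, which left 13211 genes to test. Each symbol had 1 row.

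The RNA came from bone marrow-derived macrophages (BMMs) of wild-type C57BL/6 mice aged 8 to 10 weeks, grown for 7 days in L929-conditioned medium. Every culture, controls included, was primed overnight with IFNγ at 10 ng/mL and then activated for 1 hr with LPS at 100 ng/mL together with immune complexes (ICs) of ovalbumin and IgG. One group had received the gamma-secretase inhibitor (GSI) DAPT at 25 μM, which blocks the cleavage that releases the active part of Notch receptors, and the other received its solvent DMSO at 0.01%. Each group held 2 libraries, and each library had 4 columns of counts, taken as sequencing runs since the labels do not define them. The libraries held 42694655 and 56932059 counts (DMSO) and 48483661 and 49511733 counts (GSI), so a floor of 3 counts was 0.0527 to 0.0703 CPM (counts per 1000000 counts of the library). The sources do not say whether replicates were separate mice or cultures, so the p-values measure the spread between these libraries, which may be technical. No library without IFNγ or without activation was analysed here, so the induction of the family itself was not measured.

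The p47 GTPases are part of the cell's own defence against microbes that live in vacuoles, and IFNγ is their main inducer. The effector members load onto the vacuole membrane around a parasite or bacterium and break it up, a step that uses the ATG conjugation proteins of autophagy. The regulator members, named for a GMS sequence in their nucleotide-binding (G1) loop, sit on the cell's own membranes and keep the effectors, which carry the usual GKS sequence, in an inactive state there.

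The G1 loop is shown because it splits the members into these classes. In the coding sequences of GENCODE M21 (GRCm38), the codon before the loop's last serine was a methionine codon in 3 members (Irgm1, Irgm2 and Igtp) and a lysine codon in the other 5. The 6 members on chromosome 11 are printed from the coding strand, 5′ to 3′, with that codon in capitals. The stretches lie at chr11:48866761-48866784 (Irgm1, minus strand), chr11:58219695-58219718 (Irgm2, plus strand), chr11:58206275-58206298 (Igtp, plus strand), chr11:48987667-48987690 (Tgtp1, minus strand), chr11:49059534-49059557 (Tgtp2, minus strand) and chr11:49095648-49095671 (Ifi47, plus strand).
Irgm1: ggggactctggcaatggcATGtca
Irgm2: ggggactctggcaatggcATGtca
Igtp: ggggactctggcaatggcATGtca
Tgtp1: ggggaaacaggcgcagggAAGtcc
Tgtp2: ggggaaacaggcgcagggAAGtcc
Ifi47: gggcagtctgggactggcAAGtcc

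The 3 regulators share the same 24 bases at this site, and their coding sequences were 63% to 67.3% identical to each other. Tgtp1 and Tgtp2 also share 1 version, and Ifi47 has its own.

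Tgtp1 and Tgtp2 are near-identical copies, and the coding stretch in which they differ most is shown because the counts of the 2 genes are compared with each other. Their coding sequences, each of 1245 bases without the stop codon, differed at 4 positions, counted from 1 at the first base of the start codon with the Tgtp1 base first: G270C, C408T, C729T and C735A. The last 2 fall in the 60 coding bases printed here in the direction of the gene, with the differing bases in capitals, from chr11:48987116-48987175 (Tgtp1, minus strand) and chr11:49058983-49059042 (Tgtp2, minus strand).
Tgtp1: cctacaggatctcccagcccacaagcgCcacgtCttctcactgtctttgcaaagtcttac
Tgtp2: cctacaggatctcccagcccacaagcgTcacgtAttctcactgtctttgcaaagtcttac

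Windows were taken from the transcript of each gene with the longest coding sequence, and looked for in the transcripts of other genes. Of all its 75-base windows, 87.7% (Tgtp1) and 85.2% (Tgtp2) also occurred in another gene, which was the other copy or Gm12185. A read of that length from such a window cannot be placed by its sequence. The read length is not given in the sources used here. At 150 bases the shared windows were still 74.1% and 71.7%, and at 36 bases they were 93.5% and 93.6%. For the other 6 members the share of 75-base windows found elsewhere was 0% to 8.37%, so the transcripts searched are mainly of their own sequence. They hold 2259 of the 5810 exon bases of Irgm1 and 3121 of the 5823 of Iigp1. Other transcripts of the members, and the genome outside transcripts, were not searched.

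The members were abundant in both groups. Summed over the 8 genes they took 0.617% and 0.574% of the counts of the DMSO libraries and 0.67% and 0.672% of those of the GSI libraries. On the CPM scale the sum was 6119 and 5764 in DMSO and 6716 and 6734 in GSI, and the groups did not overlap. By mean CPM over the 4 libraries Irgm1 ranked 52 among the 13211 genes tested, Iigp1 ranked 76 and Ifi47 ranked 159, while Gm4951, the least abundant member, ranked 2208.

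**Figure D1:**
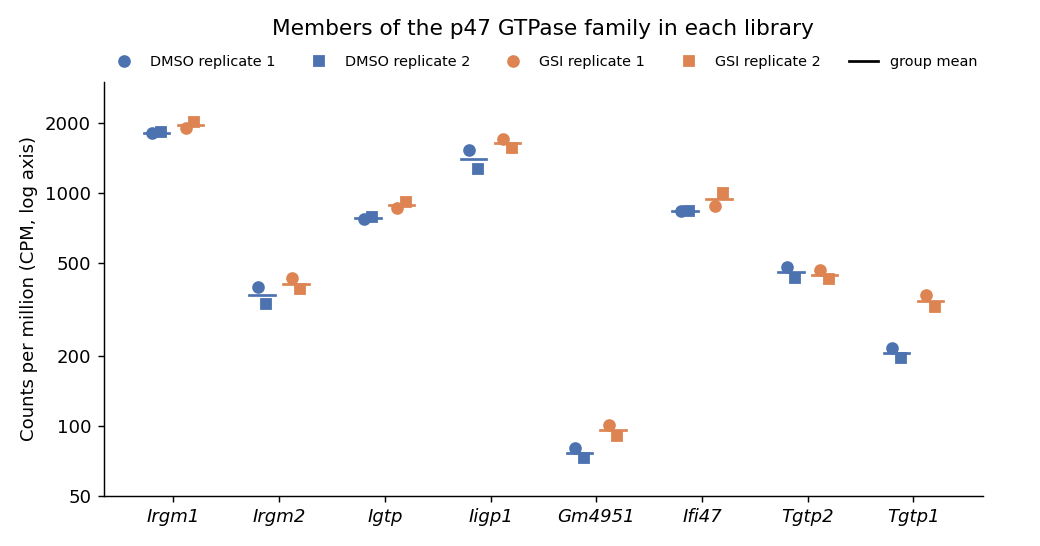
Level of each member in CPM (log axis) in the 2 DMSO libraries (blue) and the 2 GSI libraries (orange), with circles for replicate 1, squares for replicate 2 and lines for group means. Tgtp1 is the member whose groups stand farthest apart, at 196 to 216 CPM in DMSO and 324 to 364 CPM in GSI.

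Per kilobase of exon, which allows the genes to be compared with each other, the levels in the DMSO libraries ran from Igtp (387 ± 5.91 CPM per kb; SD, n = 2) through Ifi47 (339 ± 1.00), Irgm1 (313 ± 1.90), Iigp1 (240 ± 31.2), Tgtp2 (155 ± 11.4), Irgm2 (98.6 ± 11.4) and Tgtp1 (64.3 ± 4.41) to Gm4951 (28.8 ± 2.02). The 2 libraries of each gene did not overlap those of its neighbour in this order. The order of the upper 4 depended on the length used: with the longest transcript in place of all exons they were Irgm1 (475), Ifi47 (472), Iigp1 (448) and Igtp (387), while the order of the lower 4 was the same. Tgtp2 was above Tgtp1 per kb in each of the 4 libraries. The places of both copies in this order hold for the counts as deposited only, since reads that match both may have been dropped or split, which is not given in the sources used here, and dropped reads would make their levels too low.

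Between the groups, 7 of the 8 members differed by less than 1.3-fold, and Tgtp1 was the exception. With edgeR's quasi-likelihood test and p-values adjusted after Benjamini and Hochberg over all genes, 3 members passed a false discovery rate (FDR) of 0.05, all of them higher with GSI: Tgtp1, Gm4951 and Iigp1. Among all genes tested 40.8% passed in either direction, 19% were higher and 21.9% were lower. No member was lower, at an unadjusted p under 0.05 or with DESeq2 either. The median log2 fold change of the 8 members was 0.18, beside 0.02 for all genes tested. At the fold cut-off of the study, an absolute log2 fold change above 1.5 with the same FDR, 0 members passed, with DESeq2 as well, and the share of all genes was 2.91%. In 6 members (all but Irgm2 and Tgtp2) both GSI libraries lay above both DMSO libraries, as they did in 35.8% of all genes tested.

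**Figure D2:**
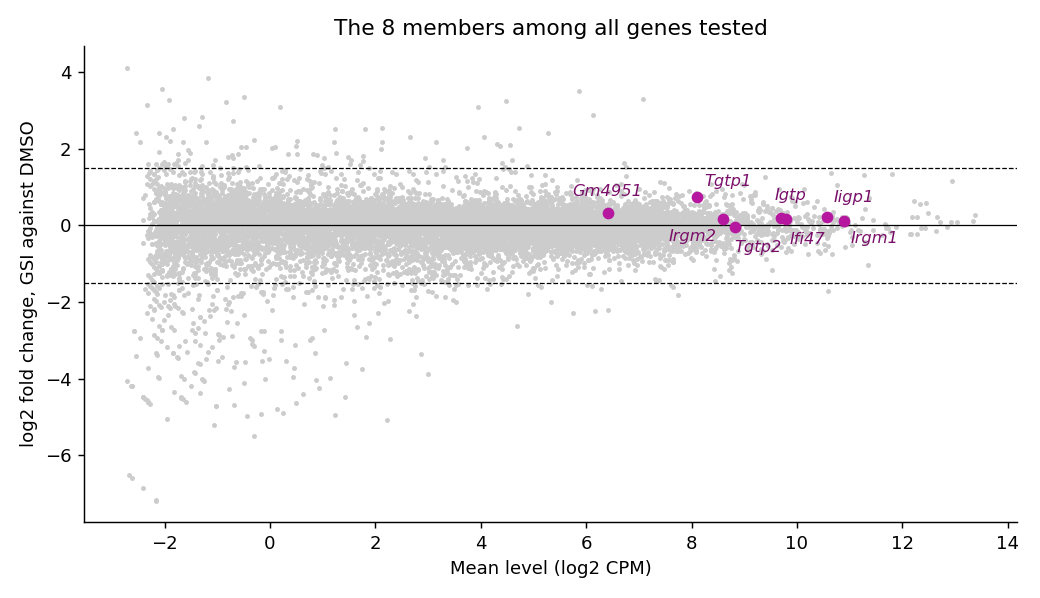
Log2 fold change of GSI against DMSO for each gene tested, against its mean level in log2 CPM, with the 8 members in purple and dashed lines at the fold cut-off of 1.5 on either side. The members lie at the abundant end and within the dashed lines, between -0.03 (Tgtp2) and 0.74 (Tgtp1).

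Among the regulators, Irgm1, which in mouse macrophages is tied to autophagy and to resistance against mycobacteria, measured 1812 and 1828 CPM in DMSO and 1909 and 2025 CPM in GSI. Both GSI libraries were above both DMSO libraries, by a fold of 1.08 (log2 fold change 0.11 ± 0.07 SE), which did not pass the edgeR test (FDR = 0.239). Without GSI replicate 2 the log2 fold change was 0.07 (FDR = 0.564). Irgm2 measured 394 and 334 CPM in DMSO and 429 and 385 CPM in GSI. Its groups overlapped, and the gap between the DMSO libraries (0.24 on the log2 scale) was wider than the difference between the groups (log2 fold change 0.16 ± 0.08, FDR = 0.125 in edgeR). The value turned on single libraries: it was 0.28 without DMSO replicate 1 (FDR = 0.0219) and 0.24 without GSI replicate 2 (FDR = 0.017), which passed, but 0.04 without DMSO replicate 2 (FDR = 0.771) and 0.08 without GSI replicate 1 (FDR = 0.486).

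Igtp, also called Irgm3, a regulator on the endoplasmic reticulum that mice need to resist Toxoplasma, measured 775 and 792 CPM in DMSO and 861 and 915 CPM in GSI. The groups were apart, but the fold of 1.13 (log2 fold change 0.18 ± 0.07) lay just outside the threshold of the edgeR test (FDR = 0.0544). It passed with DESeq2 (FDR = 0.034), and in edgeR with no filter on low counts (FDR = 0.0352) or without GSI replicate 1 (0.22, FDR = 0.0311), while the other 3 libraries left out in turn gave 0.14 or more and no call. Igtp and Irgm2 are neighbours on chromosome 11, at chr11:58199556-58207591 and chr11:58199618-58222782, both on the plus strand. They share 162 bases of exon, 8.01% of the exon length of Igtp and 4.39% of that of Irgm2, so a small part of their reads could have been given to either gene or to none.

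Among the effectors, Iigp1, also called Irga6, one of the GTPases that load onto Toxoplasma vacuoles, measured 1527 and 1270 CPM in DMSO and 1703 and 1566 CPM in GSI. Every GSI library was above every DMSO library, but the lower GSI value and the higher DMSO value lay close together. The log2 fold change was 0.23 ± 0.09 (1.17-fold, FDR = 0.0416 in edgeR). This call rested on single libraries: without DMSO replicate 2 the log2 fold change was 0.10 (FDR = 0.523 in edgeR), and without GSI replicate 1 it was 0.16 (FDR = 0.127).

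Gm4951 lies near Iigp1 on chromosome 18, and the coding sequences of both were 86.1% identical. It was the least abundant member, at 79.9 and 72.4 CPM in DMSO and 101 and 90.1 CPM in GSI. The groups did not overlap, and the gene rose 1.25-fold (log2 fold change 0.33 ± 0.08, FDR = 0.002 in edgeR). It passed the threshold with any 1 library left out, with log2 fold changes from 0.24 to 0.41.

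Ifi47, also called Irgd, measured 836 and 839 CPM in DMSO and 884 and 1002 CPM in GSI, at a log2 fold change of 0.17 ± 0.08 that did not pass the edgeR test (FDR = 0.0826). Without GSI replicate 1 the value was 0.26, which passed (FDR = 0.0104), and without GSI replicate 2 it was 0.08 (FDR = 0.521). With no filter on low counts it passed as well (FDR = 0.0468). The DMSO libraries were nearly equal, and the GSI libraries were both higher but farther from each other. Ifi47 (chr11:49076587-49096974, plus strand) shares 111 bases of exon with Olfr56 on the same strand, 4.49% of its exon length. Olfr56, annotated as an olfactory receptor gene, measured 33.2 and 29.7 CPM in DMSO and 50.04 and 45.4 CPM in GSI (log2 fold change 0.60 ± 0.08, FDR = 5.18e-06 in edgeR). The part of the shared exon in these reads was not tested. A pseudogene on the other strand, Gm12188, had 0 or 1 count per library.

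Tgtp1 and Tgtp2, together called Irgb6, encode effectors that were first found in T cells and that load early onto parasite vacuoles. Tgtp1 measured 216 and 196 CPM in DMSO and 364 and 324 CPM in GSI. Its groups were well apart, with a log2 fold change of 0.74 ± 0.08 (1.67-fold, FDR = 1.92e-07 in edgeR), against gaps of 0.14 and 0.17 between the libraries within the groups. With any 1 library left out the log2 fold change was 0.65 to 0.82, and the FDR was 1.75e-07 or less.

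Tgtp2 measured 480 and 433 CPM in DMSO and 465 and 427 CPM in GSI. The groups overlapped, and the log2 fold change was -0.03 ± 0.08 (FDR = 0.762 in edgeR), with a sign that turned when DMSO replicate 1 (0.04) or GSI replicate 2 (0.03) was left out. In raw counts, Tgtp1 had 9297 and 11125 in DMSO and 17570 and 16001 in GSI, and Tgtp2 had 20669 and 24567 in DMSO and 22495 and 21097 in GSI.

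Of the pair's counts, 31% and 31.2% were assigned to Tgtp1 with DMSO, against 43.9% and 43.1% with GSI. The libraries of a group differed by less than 1 percentage point. The log2 ratio of Tgtp1 to Tgtp2 differed by 0.77 between the groups, that is by a factor of 1.71. An exact permutation test of this difference, 2-sided, gave p = 0.333, the smallest p that 2 against 2 libraries allow.

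**Figure D3:**
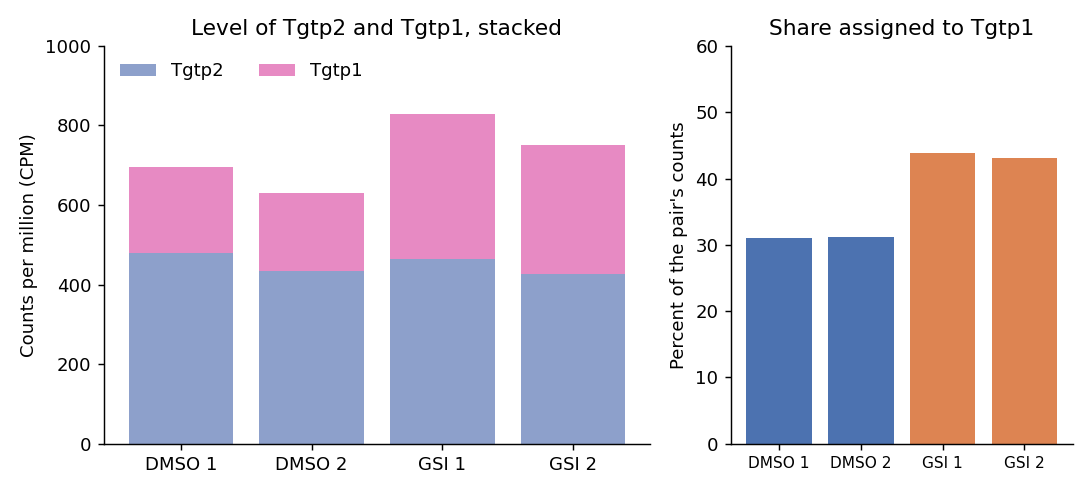
Left, level of Tgtp2 and Tgtp1 in CPM, stacked, in each of the 4 libraries; right, share of the pair's counts assigned to Tgtp1, in percent. Tgtp2 stays between 427 and 480 CPM, while the Tgtp1 share goes from 31% and 31.2% in DMSO to 43.9% and 43.1% in GSI.

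As the sum of both copies does not depend on how reads were split between them, it was tested as 1 feature. Reads that were dropped because they match both copies, or given to Gm12185, would be missing from it. The sum measured 697 and 629 CPM in DMSO and 829 and 751 CPM in GSI, with no overlap. It rose 1.19-fold (log2 fold change 0.25 ± 0.08, FDR = 0.0137 in edgeR), but without DMSO replicate 2 (0.18, FDR = 0.186) or GSI replicate 1 (0.18, FDR = 0.0924) it did not pass. How the authors' counting treated reads that match both copies is not given in the sources used here, and its part in the difference between Tgtp1 and Tgtp2 was not tested. Windows of 75 bases found in no other gene made up 231 of 1322 windows that touch the coding sequence in each copy, and 75 of 1228 wholly after it. Before the coding sequence they made up 32 of 199 windows in Tgtp1 and 100 of 186 in Tgtp2.

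Tgtp1 (chr11:48985327-48994172, minus strand) also shares 223 bases of exon, 6.96% of its exon length, with Gm12185, a further p47 GTPase locus on the same strand. Gm12185 measured 61.8 and 55.2 CPM in DMSO and 66.4 and 64.5 CPM in GSI (log2 fold change 0.16 ± 0.08, FDR = 0.0896 in edgeR). Its level was thus below that of Tgtp1 in every library.

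The promoters are shown because the members are known targets of interferon signalling. RefSeq windows of 300 bases (250 before to 50 after the start, GRCm38) were found for 6 members, those on chromosome 11. A GAS motif (gamma-activated site, TTCNNNGAA, its own reverse complement) and the core of an ISRE (interferon-stimulated response element, GAAANNGAA, or TTCNNTTTC on the other strand) were searched on both strands. Of all 32851 promoter windows, 8.3% held the GAS letters, 8.56% the ISRE core and 1.07% both. In Tgtp1, Tgtp2, Igtp and Irgm2 both were present, with 2 bases between them. The stretches lie at chr11:48992290-48992359 (Tgtp1, minus strand), chr11:49064249-49064318 (Tgtp2, minus strand), chr11:58199486-58199555 (Igtp, plus strand), chr11:58214877-58214946 (Irgm2, plus strand) and chr11:48871429-48871457 (Irgm1, minus strand). Motif letters are in capitals.
Tgtp1: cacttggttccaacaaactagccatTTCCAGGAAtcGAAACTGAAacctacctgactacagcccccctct
Tgtp2: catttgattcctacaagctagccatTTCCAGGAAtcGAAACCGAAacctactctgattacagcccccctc
Igtp: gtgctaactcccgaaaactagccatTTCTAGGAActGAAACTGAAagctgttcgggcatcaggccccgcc
Irgm2: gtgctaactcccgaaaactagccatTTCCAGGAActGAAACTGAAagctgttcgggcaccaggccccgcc
Irgm1: gtttcaaGAAATAGAAACCGAAactgatt

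The GAS motif began 88 bases before the RefSeq start in Tgtp1, 81 in Tgtp2, 45 in Igtp and 75 in Irgm2. In GENCODE M21 some genes start farther upstream. The stretches of Tgtp1, Irgm2 and Irgm1 lie inside their gene spans there (chr11:48985327-48994172, chr11:58199618-58222782 and chr11:48861968-48871683). This arrangement, a GAS followed 2 bases later by an ISRE core, was looked for after the member sequences had been seen. It occurred in 8 of the 32851 windows (0.0244%), those of Adar, Gm12185, Igtp, Irgm2, LOC115488470, Olfr382, Tgtp1 and Tgtp2. Irgm1 held 2 overlapping ISRE cores, 24 and 30 bases before the RefSeq start, and no GAS letters. Ifi47 held neither. The promoter windows of Tgtp1 and Tgtp2 were 66.8% identical, and those of Igtp and Irgm2 72.8%.

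Further p47 GTPase loci of the mouse genome, 10 in all, served as a comparison, of which 8 passed the filter. Of these 2 rose, 4 fell and 2 did not pass, with a median log2 fold change of -0.08. Sequence windows that these loci share with other genes were not searched, so the placing of their reads was not examined. Gm12250, the gene of the effector Irgb10, measured 190 and 167 CPM in DMSO and 234 and 223 CPM in GSI (log2 fold change 0.36 ± 0.08, FDR = 0.000775 in edgeR). Gm4841 measured 29.4 and 24.5 CPM in DMSO and 44.6 and 37.5 CPM in GSI (log2 fold change 0.61 ± 0.10, FDR = 3.08e-05). The groups of both genes were apart. The largest decreases were those of 9930111J21Rik1 (log2 fold change -0.88 ± 0.12, FDR = 3.98e-06) and 9930111J21Rik2 (-0.68 ± 0.13, FDR = 0.000192), which went from 10.2 to 11.95 and from 29.4 to 37.1 CPM in DMSO to 5.61 to 6.39 and 17.1 to 24.4 CPM in GSI. With DESeq2, 3 of these loci passed rather than 6. The remaining 2 loci, Gm12187 and Irgc1, had 0 to 4 counts per library.

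**Figure D4:**
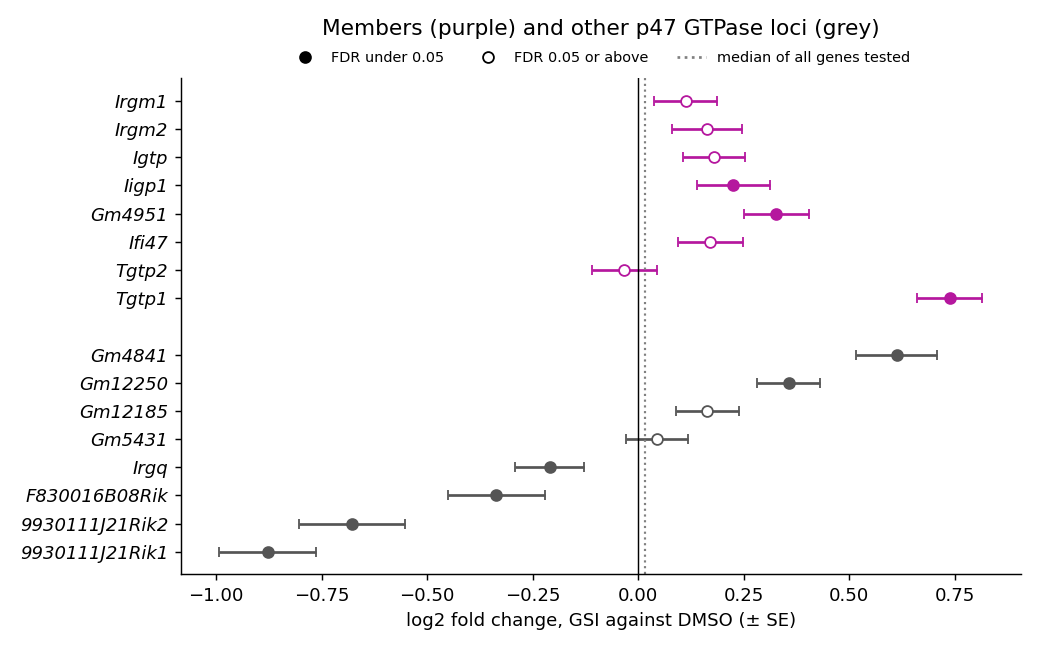
Log2 fold change of GSI against DMSO with its SE for the 8 members (purple) and the 8 other p47 GTPase loci that passed the filter (grey), filled where the FDR was under 0.05. Of the members 7 lie above 0, while 4 of the 8 other loci lie below it.

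The guanylate-binding proteins, larger interferon-induced GTPases that act beside the p47 family on the same vacuoles, had 4 members higher and 2 lower of 11, with a median log2 fold change of 0.09. Gbp2b fell from 325 and 283 CPM to 101 and 97.0 CPM (log2 fold change -1.61 ± 0.08, FDR = 4.81e-12 in edgeR), a larger change than that of any p47 member, while Gbp10 (0.56) and Gbp11 (0.45) rose.

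In the receptor and signal chain above the family more genes fell than rose, but this short list was not tested as a set. Among all genes tested 21.9% were lower and 19% were higher. Of 7 receptor, kinase and STAT genes 4 fell and 1 rose, but only 3 passed with DMSO replicate 1, DMSO replicate 2 or GSI replicate 1 left out. Ifngr1, the ligand-binding chain of the IFNγ receptor, measured 202 and 189 CPM in DMSO and 124 and 131 CPM in GSI (log2 fold change -0.62 ± 0.07, FDR = 6.97e-07 in edgeR). Jak2, the kinase bound to the other chain, fell as well (-0.52 ± 0.07, FDR = 4.24e-06), and Stat2 rose (0.37).

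Irf1, an IFNγ-induced factor that binds ISRE-like sites, measured 2606 and 2721 CPM in DMSO and 2946 and 2873 CPM in GSI (log2 fold change 0.13 ± 0.07, FDR = 0.179 in edgeR), a difference of the size seen in most p47 members. Among the 7 IRFs and other IFNγ-driven factors, Batf2 rose (0.45) and Irf2 fell (-0.41), and 5 did not pass. Of 9 brakes on IFNγ signalling 2 rose and 3 fell. Socs1, which blocks JAK kinases, rose from 39.0 and 43.2 CPM to 58.7 and 54.5 CPM (log2 fold change 0.46 ± 0.08, FDR = 7.46e-05), as did Usp18 (0.71), and Cish fell (-1.05). Without DMSO replicate 1, 3 of these 9 passed.

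Other IFNγ-induced genes moved more widely than the p47 members. Of 20, 12 rose and 2 fell, with a median log2 fold change of 0.21. Nos2, the inducible nitric oxide synthase and a further arm of macrophage defence, went from 23.8 and 25.9 CPM to 250.3 and 241 CPM (log2 fold change 3.30 ± 0.08, FDR = 7.91e-17 in edgeR). Ido1 (1.41) and Serping1 (1.82), both at under 10 CPM, also rose.

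Among 19 genes that respond mainly to type I interferon, with Ifnb1 counted in, 18 rose and 1, Ifih1 (0.10), did not pass, with a median of 0.58 and all 19 values above 0. Ifnb1 itself went from 10.2 and 13.1 CPM to 27.1 and 27.9 CPM (log2 fold change 1.23 ± 0.10, FDR = 7.51e-09), Isg15 rose by 0.79 and Mx2 by 0.78. Tgtp1, at 0.74, lay within the range of these genes (0.10 to 1.23), and the other 7 p47 members (-0.03 to 0.33) lay below their median. The value of Tgtp1 also lay within the range of the other IFNγ-induced genes (-0.44 to 3.30).

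**Figure D5:**
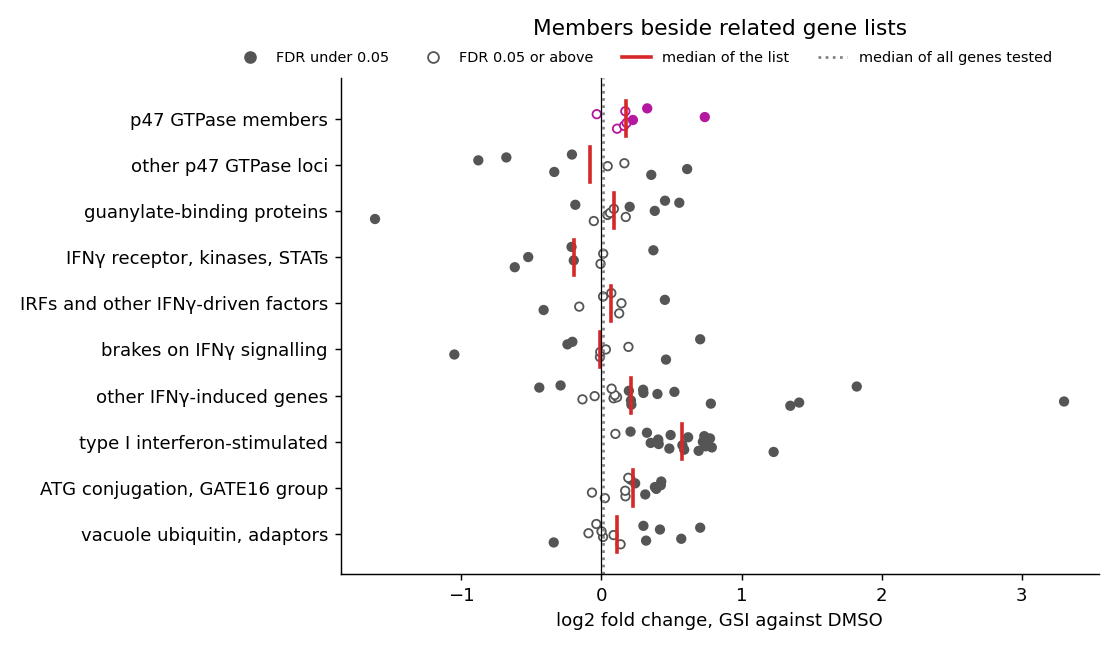
Log2 fold change of GSI against DMSO for each gene tested of the p47 members (purple) and of 9 related lists (grey), filled where the FDR was under 0.05, with the median of each list in red and that of all genes tested dotted. The p47 median is 0.18, beside 0.58 for the type I interferon-stimulated genes and -0.20 for the receptor, kinase and STAT genes.

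Transcripts of the proteins with which the effectors work on vacuoles were higher in part. Of 12 genes of the ATG conjugation system and the GATE16 group, which the effectors need to reach their target membranes, 7 rose and 0 fell, with a median log2 fold change of 0.23. Gabarap (0.43), Map1lc3a (0.42) and Atg10 (0.39) had the largest changes. Of 12 ubiquitin and adaptor genes 5 rose and 1 fell (median 0.11). Lgals3, a galectin that marks broken vacuoles, rose from 1907 and 2092 CPM to 3248 and 3272 CPM (log2 fold change 0.71 ± 0.08, FDR = 3.19e-07 in edgeR), and Optn (0.42) rose too.

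The cultures carried macrophage markers. Their summed level over 9 genes was 12550 and 12730 CPM in DMSO and 9681 and 10570 CPM in GSI; 7 of the 9 were lower with GSI, such as Cd14 (-0.64) and Itgam (-0.63), and 1, Mertk (0.64), was higher. Markers of granulocytes, T and NK cells, B cells, mast cells, erythroid cells and fibroblasts summed to 0 to 1.43 CPM per list and library, with Ly6g, Cd3e, Cpa3 and Col1a1 at 3 counts or fewer in every library. The dendritic cell list summed to 186 and 179 CPM in DMSO and 113 and 115 CPM in GSI, nearly all from Clec9a (-0.69), with Xcr1 (-0.42) also lower and Flt3 and Siglech at 3 counts or fewer. Of the mast cell list Kit was higher (0.83), at 0.49 to 1.12 CPM. In bulk RNA, fewer cells of a type and less RNA per cell cannot be told apart, and the part of these marker differences in the p47 values was not tested.

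The genes whose course over the 4 libraries was most like the mean course of the 8 members, by Euclidean distance of row-centred log2 CPM among 10949 other genes with a mean of at least 1 CPM, were Zfp40 (distance 0.01), Trim36 (0.02), Parp6 (0.02), Manf (0.02) and Mill2 (0.03). Their log2 fold changes were 0.22 to 0.25. With 4 libraries this likeness is a description only.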

How the data were processed

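The deposited values were raw read counts per gene and run. According to the methods and the submitters' processing notes, the authors made stranded poly(A) libraries for an Illumina NextSeq, trimmed with Trimmomatic, aligned to mm10 (GRCm38; mm9 is also listed) with STAR 2.5.0a and counted with HTSeq. The counting mode is not given in the sources used here. Methods and legends differ on when the inhibitor was added. The 4 run columns of each replicate, which differed about as much as sampling noise over the members (chi-square per degree of freedom 0.591 to 1.42), were summed to 4 libraries. All 16 count columns were used.

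The main test was edgeR 4.0.16 (R 4.3.3) quasi-likelihood with filterByExpr and TMM, modelling group alone, and the Benjamini-Hochberg FDR was taken over 13211 genes. CPM used TMM-adjusted totals. The procedure was tested on simulated data. Floors cover counting error only. The members and lists were chosen with earlier results of these data known. Named were all members, the 3 largest called changes of each list, set genes (Irf1, Ifngr1, Socs1, Gm12250) and the 5 nearest profiles; genes that share exons with members, the promoters sharing the motif pair, Ifih1, loci under the filter and single marker genes were named after their values were seen. Lengths, positions and coding sequences came from GENCODE M21, which held 46488 of the 47069 gene IDs, and promoters from RefSeq (GRCm38). A comparison of proteins was planned; coding sequences were compared instead (Biopython 1.88). Window lengths of 36, 75 and 150 bases were chosen here. DESeq2 1.42.0, other scalings and filters, a likelihood ratio test, a replicate block, single runs and each library left out were the alternatives. Some named items of the lists are not reported here.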

Additional observations from a re-analysis of the deposited data

How the results depend on the processing

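The 7 members above 0 kept their sign under every alternative run, and Tgtp1 and Gm4951 passed the threshold under each of the 12. The number of members that passed was 3 in the test as reported and 5 with no filter on low counts. It was 7 with the 16 runs as separate samples, which treats runs of 1 library as replicates. Over all genes, 5392 of 13211 passed as reported, 5607 of 21723 with no filter and 7582 of 11179 with runs kept apart. The cause of the change with no filter was not tested. Leaving out 1 library gave 2 to 4 members, 3 to 5 receptor, kinase and STAT genes and 3 to 5 brakes. The log2 fold change of Tgtp1 plus Tgtp2 was 0.18 to 0.33 with 1 library left out, where the lone library of a group was assumed to vary like the other group. DESeq2 called 3 of the other p47 loci, and 6 of the IRFs and other factors passed with runs kept apart; the causes were not tested. Over scalings the median of all genes moved from 0.02 to 0.01 in log2. With the replicate number as a block, 6 members passed (Irgm2, Igtp and Ifi47 in addition), as did 6444 of the 13211 genes tested. The sum of Tgtp1 and Tgtp2 had a log2 fold change of 0.25 with this block. The labels do not say what the number marks. The correlation of the replicate differences of both groups was 0.16 over 13211 genes, from 2 pairs. Every member had at least 3439 counts in each library, so the spread between the 2 libraries of a group (biological coefficient of variation 0.058 over all genes) limited the precision more than depth.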
